A study of Mus musculus with 7 samples.

Results

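The genes described are 10 subunits of the ring-shaped SMC complexes, taken by symbol from the 52224 genes of the deposited expression table: Smc1a, Smc3 and Rad21 of cohesin, Smc2, Smc4, Ncapd2, Ncapg and Ncaph of condensin, and Smc5 and Smc6 of the SMC5/6 complex. All 10 were found and all 10 passed the filter on low values. The 7 RNA-seq libraries came from bone marrow haematopoietic stem cells of wild-type C57BL/6J mice, which had been sorted as lineage-negative Sca-1+ c-Kit+ cells that were CD48- and CD150+ and then cultured for 48 h. The medium held the solvent DMSO (n = 3), 0.5 µM gemcitabine (Gem, n = 2) or 100 µM hydroxyurea (HU, n = 2). No group carried an allele other than wild type, and neither the age nor the sex of the mice is stated. The study concerns DEK, a chromatin protein, in Fanconi anaemia and replication stress, by its title. Nothing states that replicate libraries were made from different mice or cultures, so p-values here measure no more than library-to-library spread, possibly of technical origin.

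SMC proteins fold into long coiled coils that end in an ATPase head, and pairs of them closed by a kleisin subunit form rings that hold or extrude DNA. Cohesin holds sister chromatids together from replication to anaphase and forms chromatin loops in interphase. Condensin compacts chromosomes for mitosis, and the SMC5/6 complex acts at stalled or broken replication forks. Gemcitabine, a deoxycytidine analogue, and hydroxyurea, an inhibitor of ribonucleotide reductase, both starve replication forks of nucleotides.

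The values are FPKM, fragments scaled to gene length and to the number mapped, a unit that allows levels of different genes to be compared. The DMSO libraries had FPKM sums of 818775 to 832979, those of Gem 703016 to 729258, and those of HU 647760 to 651315. Genes above 0 numbered 21251 to 23047 with DMSO, 27887 to 29158 with Gem and 29687 to 31153 with HU. Among 1998 olfactory, odorant and vomeronasal receptor genes, which blood cells are not known for, 384 to 408 were above 0 with DMSO, 1002 to 1083 with Gem and 1241 to 1275 with HU. The median of all 13865 tested genes had a log2 change, on the log2(FPKM + 1) scale, of -0.25 in Gem and -0.30 in HU against DMSO. Changes against DMSO are therefore given as deposited and after trimmed-mean scaling, which brought those medians to 0.0093 and 0.013. Read numbers could not be recovered from the FPKM values, so the depth of each library is unknown. Of the markers used in the sort, Kit stood at 28.98 to 48.22 FPKM over the 7 libraries, Ly6a (Sca-1) at 14.74 to 48.31 and Slamf1 (CD150) at 0.41 to 1.25, while Cd48, whose product the sort excluded, stood at 202 to 223 (DMSO), 125 to 130 (Gem) and 102 to 113 (HU). Mecom and Fgd5, known from stem cells but not used in the sort, stood at 0.18 to 1.71 and 0 to 0.5. After 48 h of culture Kit and Ly6a were thus expressed, Slamf1 was low and Cd48 was high, and the libraries are called by their treatment rather than by a cell type.

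In the DMSO libraries the 2 condensin ATPases were the most abundant of the 10 subunits. Smc4 stood at 80.0 ± 4.41 FPKM (mean ± SD, n = 3, as for the other DMSO values) and Smc2 at 59.0 ± 2.12. Then came the cohesin ATPase Smc1a at 49.2 ± 2.29, Smc6 at 40.8 ± 2.83 and the condensin HEAT-repeat subunit Ncapd2 at 36.6 ± 4.40. Smc3, the partner of Smc1a, stood at 21.7 ± 1.32, the condensin kleisin Ncaph at 20.5 ± 1.56 and the second HEAT-repeat subunit Ncapg at 14.5 ± 1.12. Smc5 at 9.31 ± 1.03 and the cohesin kleisin Rad21 at 8.32 ± 0.777 were lowest. Neighbours in this order had overlapping ranges only for Smc6 with Ncapd2, Smc3 with Ncaph, and Smc5 with Rad21. Smc4 was the highest of the 10 in all 7 libraries, at percentiles of 88.4 to 91.1 among the tested genes, and Rad21 lay at percentiles of 38.4 to 48.4. Ncapd2 stood above Smc6 in all 4 drug libraries.

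**Figure D1:**
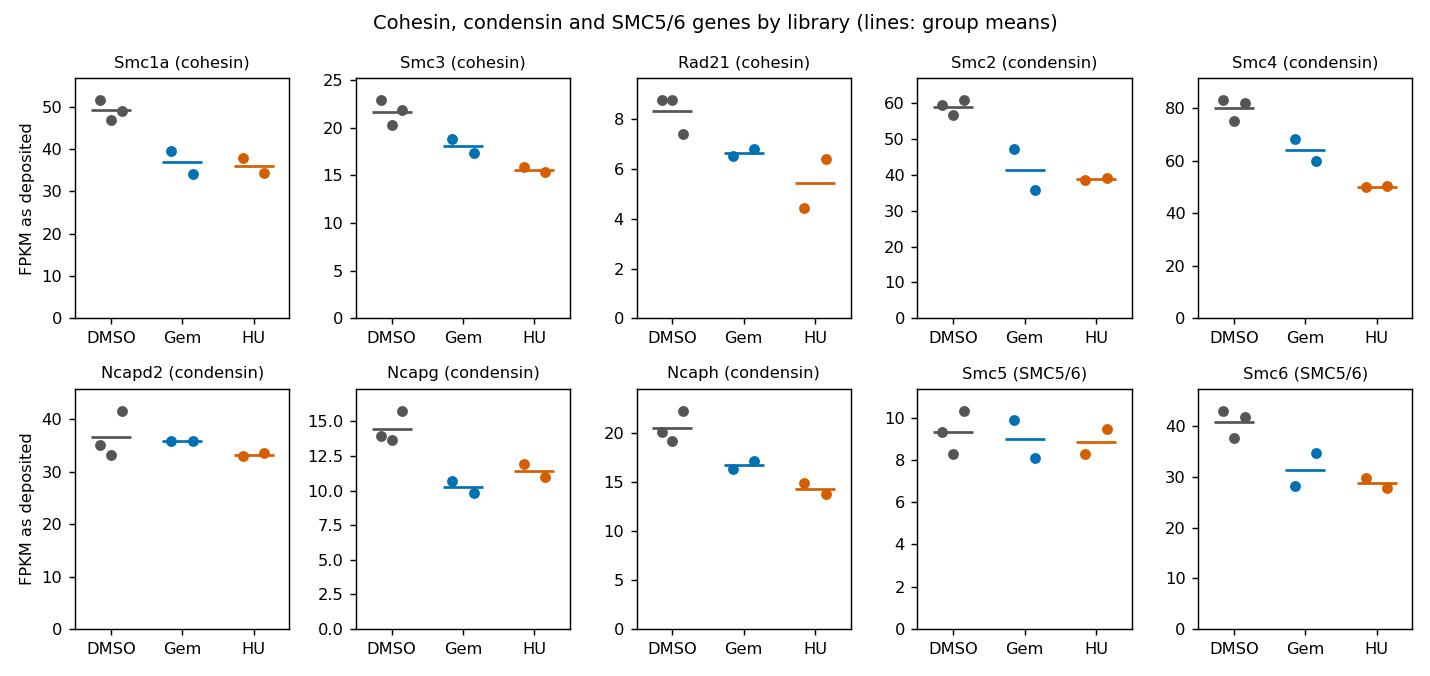
FPKM of the 10 subunits in each library, by treatment, with points for libraries and lines for group means. Smc4 is the highest in every library, and the drug libraries lie below all DMSO libraries for 8 subunits in the comparison of both drugs with DMSO, but not for Ncapd2 and Smc5.

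Of the 3 cohesin subunits, Smc1a fell in Gem, and Smc1a, Smc3 and Rad21 fell in HU, as deposited. Smc1a stood at 51.5, 46.93 and 49.07 FPKM in DMSO 1 to 3, at 39.46 and 34.17 in Gem 1 and 2, and at 37.82 and 34.23 in HU 1 and 2. All 4 drug libraries lay below all 3 DMSO libraries. Its log2 change was -0.41 ± 0.09 (SE) in Gem, with an adjusted p of 0.0203 by limma, and -0.44 ± 0.09 in HU, with an adjusted p of 0.00946. Smc3, the other ATPase of the ring, stood at 22.89, 20.28 and 21.9 FPKM in DMSO, 18.86 and 17.4 in Gem, and 15.88 and 15.33 in HU. The groups did not overlap here either, and the HU libraries were the lowest. Its log2 change was -0.45 in HU (limma adjusted p = 0.00819) and -0.25 in Gem, which did not pass (limma adjusted p = 0.0884). Rad21, the kleisin that separase cuts at anaphase, stood at 8.76, 8.77 and 7.42 FPKM in DMSO, 6.54 and 6.79 in Gem, and 4.44 and 6.42 in HU. HU 1 was the lowest library, and no drug library reached the lowest DMSO value. The log2 change of Rad21 was -0.55 in HU (limma adjusted p = 0.0303), and -0.28 in Gem did not pass (limma adjusted p = 0.235). The Smc1a call in Gem was lost without DMSO 1 or Gem 2, and that in HU without HU 2. The Rad21 call in HU was lost without DMSO 1, DMSO 2, Gem 1, Gem 2 or HU 1, each in turn. After scaling, none of the 3 cohesin subunits passed in either drug. The scaled log2 changes in Gem were -0.12 for Smc1a (95% confidence interval -0.32 to 0.094, limma adjusted p = 0.571), 0.042 for Smc3 (-0.17 to 0.25, limma adjusted p = 0.862) and -0.012 for Rad21 (-0.37 to 0.35, limma adjusted p = 0.985). The scaled log2 changes in HU were -0.085 for Smc1a (95% confidence interval -0.29 to 0.12, limma adjusted p = 0.611), -0.11 for Smc3 (-0.31 to 0.10, limma adjusted p = 0.515) and -0.23 for Rad21 (-0.59 to 0.12, limma adjusted p = 0.394). The scaled Rad21 value rested on which HU library was kept, at -0.021 without HU 1 and -0.45 without HU 2, and its small scaled value in Gem lay between -0.069 and 0.039 as each library was left out.

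Both condensin ATPases fell in both drugs as deposited. Smc2 stood at 59.53, 56.69 and 60.83 FPKM in DMSO, 47.27 and 35.72 in Gem, and 38.62 and 39.12 in HU. No drug library reached a DMSO value, and the Gem libraries were the farthest apart. The log2 change of Smc2 was -0.51 ± 0.12 in Gem (limma adjusted p = 0.0204) and -0.59 ± 0.12 in HU (limma adjusted p = 0.00723). Smc4, which pairs with Smc2, stood at 82.99, 74.91 and 82.02 FPKM in DMSO, 68.24 and 59.77 in Gem, and 49.78 and 50.4 in HU. The 3 groups did not overlap, with Gem between DMSO and HU. The log2 change of Smc4 was -0.32 ± 0.09 in Gem (limma adjusted p = 0.0338) and -0.66 ± 0.09 in HU (limma adjusted p = 0.00183), the most negative of the 10 genes in HU. The Smc2 call in Gem was lost without DMSO 1 or Gem 2 and that in HU without HU 1, and the Smc4 call in Gem was lost without any 1 library but DMSO 2. After scaling, Smc4 in HU was the subunit nearest to the threshold, at -0.31 ± 0.08 with a 95% confidence interval of -0.49 to -0.12, and did not pass (limma adjusted p = 0.0545). The scaled change of Smc4 in Gem was -0.021 (-0.21 to 0.17, limma adjusted p = 0.932). Smc2 after scaling was at -0.21 in Gem (-0.46 to 0.035, limma adjusted p = 0.362) and -0.23 in HU (-0.48 to 0.015, limma adjusted p = 0.225).

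Of the non-SMC subunits of condensin, Ncapg passed in both drugs as deposited, Ncaph in HU only and Ncapd2 in neither. No test compared subunits with each other. Ncapd2 was at 35.09, 33.23 and 41.61 FPKM in DMSO, 35.88 and 35.87 in Gem, and 32.96 and 33.57 in HU. The Gem libraries lay within the DMSO range and DMSO 3 was the highest. Its log2 change of -0.023 in Gem (limma adjusted p = 0.890) and -0.13 in HU (limma adjusted p = 0.350) did not pass. Scaling turned both positive, to 0.27 in Gem (95% confidence interval 0.0087 to 0.53, limma adjusted p = 0.282) and 0.22 in HU (-0.039 to 0.48, limma adjusted p = 0.270). DMSO 3 decided this value: without it, the scaled change of Ncapd2 was 0.33 in HU (limma adjusted p = 0.0451) and 0.35 in both drugs together (limma adjusted p = 0.0273). Ncaph, the kleisin that closes the condensin ring, stood at 20.05, 19.2 and 22.22 FPKM in DMSO, 16.34 and 17.14 in Gem, and 14.88 and 13.74 in HU. It fell in HU as deposited, at -0.49 (limma adjusted p = 0.00754), and did not pass in Gem at -0.27 (limma adjusted p = 0.0769). After scaling it was at 0.012 in Gem (-0.24 to 0.26) and -0.15 in HU (-0.40 to 0.10), with limma adjusted p of 0.976 and 0.448. Ncapg stood at 13.97, 13.68 and 15.75 FPKM in DMSO, 10.72 and 9.79 in Gem, and 11.88 and 10.97 in HU, with no overlap between drug and DMSO libraries. It fell in Gem, at -0.46 ± 0.11 (limma adjusted p = 0.0220), and in HU, at -0.31 (limma adjusted p = 0.0498), a call lost whichever of the 7 libraries was left out. The call in Gem was lost without DMSO 1, Gem 1 or Gem 2. After scaling, Ncapg was at -0.18 in Gem (-0.43 to 0.078) and 0.022 in HU (-0.24 to 0.28), with limma adjusted p of 0.465 and 0.927. Ncapg shares 944 exonic bases with Lcorl on the opposite strand, which stood at 4.75 to 10.13 FPKM. The labels do not say that counting used strand, so the Ncapg values are uncertain.

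The promoter sequences of Smc2, Ncapd2 and Ncapg are shown because these 3 windows hold both motifs searched as landmarks of cell cycle promoters. Whether the motifs bear on the levels was not tested. The motifs were CCAAT, the box bound by NF-Y, and TTTGAA, a cell cycle homology region, each on either strand, and capitals mark them. Each window holds the 250 bases before the RefSeq start site in GRCm38.p6, printed on the strand of the gene: Smc2 at chr4:52438971-52439220 (+), Ncapd2 at chr6:125191587-125191836 (-) and Ncapg at chr5:45669675-45669924 (+).
Smc2: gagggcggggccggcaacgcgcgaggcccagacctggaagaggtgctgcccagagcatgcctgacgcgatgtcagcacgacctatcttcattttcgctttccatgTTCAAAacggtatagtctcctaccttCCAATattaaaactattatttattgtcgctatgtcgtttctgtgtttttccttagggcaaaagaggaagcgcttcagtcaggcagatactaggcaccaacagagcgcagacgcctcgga
Ncapd2: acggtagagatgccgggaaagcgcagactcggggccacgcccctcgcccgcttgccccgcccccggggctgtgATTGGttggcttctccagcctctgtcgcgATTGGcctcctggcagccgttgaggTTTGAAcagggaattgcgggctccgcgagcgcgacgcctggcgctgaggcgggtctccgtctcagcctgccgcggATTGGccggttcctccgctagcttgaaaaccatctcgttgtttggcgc
Ncapg: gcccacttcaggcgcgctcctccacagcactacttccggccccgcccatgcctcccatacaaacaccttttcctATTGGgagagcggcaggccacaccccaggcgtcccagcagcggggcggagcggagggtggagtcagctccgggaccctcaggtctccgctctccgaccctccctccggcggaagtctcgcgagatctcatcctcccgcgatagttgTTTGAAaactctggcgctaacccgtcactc
CCAAT occurs on the reverse strand 3 times in the Ncapd2 window, which ends in TTTGGCGC, and once in the Ncapg window, and once on the forward strand in that of Smc2. RefSeq entries were found for 8 of the 10 genes, not for Rad21 and Smc4. RefSeq starts differ from the GENCODE M21 models for some genes. By those models the Smc5 window (chr19:23272600-23272849) lies inside Smc5. The part of the Ncapd2 window up to chr6:125191701, with its TTTGGCGC, lies inside Ncapd2, and the last bases of the Ncapg window lie inside Ncapg. CCAAT was found in 4 of these 8 windows and in 33.8% of all 32851 promoters of the same length. TTTGAA was found in 4 of 8 and in 16.0% of all promoters. Of 3 further motifs, TTTGGCGC was found in 1 of 8 (0.417% of all), and TTTAAA (12.1%) and TTTCCCGC (0.895%) in none.

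Of Smc5 and Smc6, which form the SMC5/6 heterodimer, only Smc6 passed as deposited. Smc6 stood at 43.01, 37.64 and 41.87 FPKM in DMSO, 28.22 and 34.68 in Gem, and 29.83 and 27.75 in HU. All drug libraries lay below the DMSO range. Its log2 change was -0.37 in Gem (limma adjusted p = 0.0455), a call lost whichever library was left out, and -0.49 in HU (limma adjusted p = 0.0117), a call lost without HU 1 or HU 2. Smc5 stood at 9.34, 8.26 and 10.32 FPKM in DMSO, 9.91 and 8.09 in Gem, and 8.26 and 9.47 in HU. These groups overlapped. The log2 change of Smc5 was -0.045 in Gem (limma adjusted p = 0.842) and -0.061 in HU (limma adjusted p = 0.752). After scaling Smc6 was at -0.078 in Gem (95% confidence interval -0.36 to 0.21, limma adjusted p = 0.805) and -0.14 in HU (-0.42 to 0.15, limma adjusted p = 0.538). Scaled Smc5 was positive, at 0.23 in Gem (-0.091 to 0.54, limma adjusted p = 0.452) and 0.26 in HU (-0.053 to 0.58, limma adjusted p = 0.278).

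In all, 5 of 10 subunits (Smc1a, Smc2, Smc4, Ncapg and Smc6) were lower in Gem as deposited, where 23.2% of all tested genes were lower by the same test. In HU 8 of 10 were lower, all but Ncapd2 and Smc5, against 35.5% of all genes, and in both drugs together 8 of 10 against 38%. The count in Gem was 0 without DMSO 1 or Gem 2, 2 without Gem 1, 3 without DMSO 3, HU 1 or HU 2 and 4 without DMSO 2, and that in HU was 4 without HU 1 and 5 without HU 2. Counts of all genes called, as deposited and scaled together, fell too. They fell in 6 comparisons and stayed similar in 2 without DMSO 1, and in 5 and 3 without Gem 2. Without HU 1 they fell in 4 and stayed similar in 4, and without HU 2 in 6 and 2. No subunit was higher, where 1.5% of genes were higher in Gem, 4.46% in HU and 4.26% in both. The median log2 change of the 10 was -0.30 in Gem, -0.47 in HU and -0.40 in both. Drug and DMSO libraries did not overlap for 8 of 10 subunits in Gem, against 50.4% of all genes, and for 8 of 10 in HU, against 53.9%, and in both drugs together for 8 of 10, against 42.6%. After scaling, 0 of 10 passed limma's test in either direction in Gem, HU or both drugs. The scaled background at the same adjusted p was 0.469% lower and 0.483% higher in Gem, 5.42% and 4.67% in HU, and 5.11% and 3.91% in both. At an unadjusted p below 0.05, 1 passed in Gem (Ncapd2), 1 in HU (Smc4) and 3 in both (Smc2, Smc4 and Ncapd2). The share of all genes at that unadjusted p was not counted, so these counts have no background. No other tool was run. The scaled medians of the 10 were -0.016 in Gem, -0.12 in HU and -0.089 in both. The comparisons with DMSO share the same 3 DMSO libraries. As the libraries are bulk RNA, fewer cells of a type and less RNA per cell cannot be told apart.

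**Figure D2:**
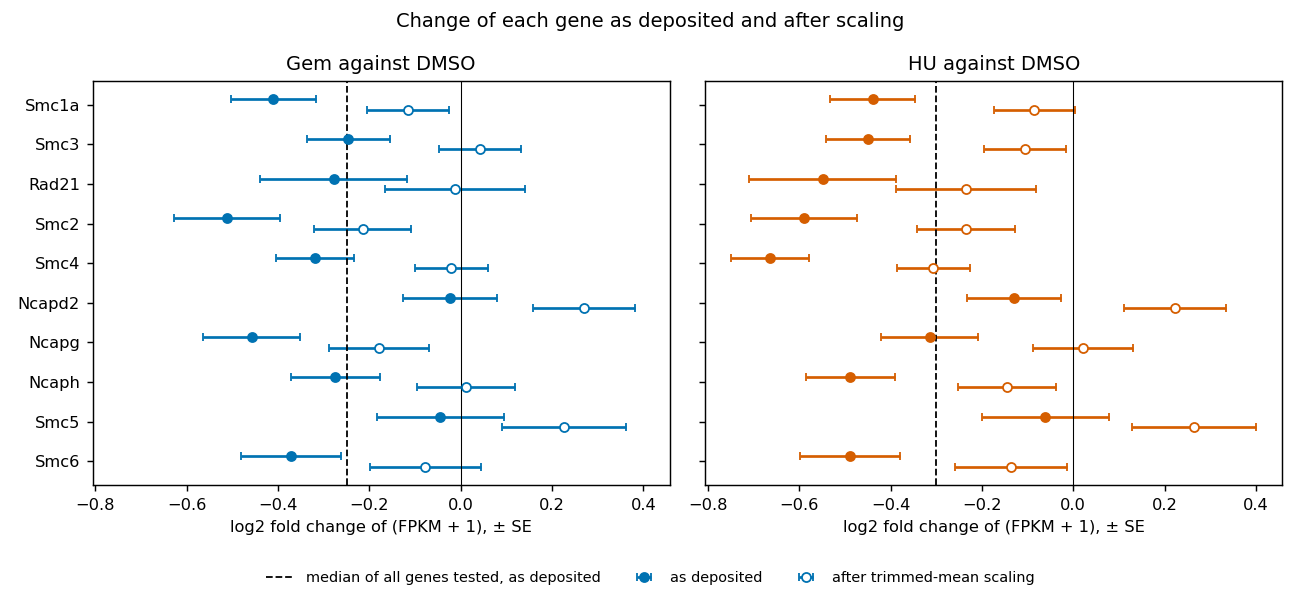
Log2 change of each subunit against DMSO, as deposited and after trimmed-mean scaling, for Gem and HU, with bars for the SE and a dashed line for the median of all tested genes as deposited. As deposited most subunits lie below 0, with Ncapd2 and Smc5 nearest to it, and after scaling Smc4 in HU at -0.31 lies farthest below.

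A ratio of 2 subunits within a library is not touched by scaling, and is given without a test. Ncapd2 per Smc2 was 0.589, 0.586 and 0.684 in DMSO, 0.759 and 1.00 in Gem, and 0.853 and 0.858 in HU. Every drug library lay above every DMSO library. Smc2 per Smc3, a condensin against a cohesin ATPase, was 2.60, 2.80 and 2.78 in DMSO, 2.51 and 2.05 in Gem, and 2.43 and 2.55 in HU. Every drug library lay below every DMSO library. Smc1a per Smc3 was 2.25, 2.31 and 2.24 in DMSO, 2.09 and 1.96 in Gem, and 2.38 and 2.23 in HU, below the DMSO range in Gem and on either side of it in HU. Smc2 per Smc4 was 0.717, 0.757 and 0.742 in DMSO, 0.693 and 0.598 in Gem and 0.776 in both HU libraries, below DMSO in Gem and above it in HU. Smc5 per Smc6 was 0.217, 0.219 and 0.246 in DMSO, 0.351 and 0.233 in Gem, and 0.277 and 0.341 in HU, where Gem 2 overlapped DMSO. Rad21 per Smc3 ranged from 0.339 to 0.432 in DMSO and from 0.280 to 0.419 in the drug libraries, which overlapped. Ncapg per Smc2 (0.235 to 0.259 in DMSO, 0.227 to 0.308 in the drug libraries) overlapped too. So did Ncaph per Smc2 (0.337 to 0.365, 0.346 to 0.480) and Smc5 per Smc3 (0.407 to 0.471, 0.465 to 0.618). Of the ratios computed, only Ncapd2 per Smc2 and Smc2 per Smc3 separated all drug from all DMSO libraries. Both hold Smc2, so they are not independent. How often ratios of other gene pairs separate the libraries was not counted.

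**Figure D3:**
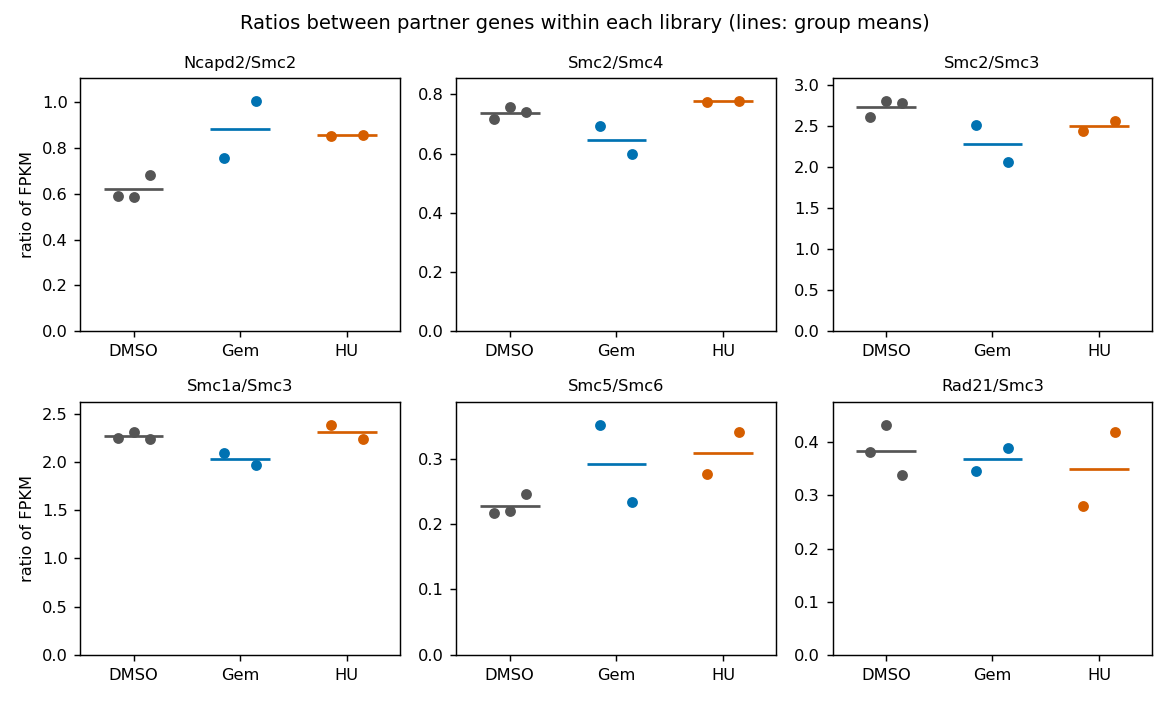
Ratios of subunit FPKM within each library, by treatment, with points for libraries and lines for group means. Ncapd2 per Smc2 is higher in all 4 drug libraries (0.759 to 1.00) than in DMSO (0.586 to 0.684), and Smc2 per Smc3 is lower.

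Between the drugs, 0 of 10 subunits passed limma's test as deposited or after scaling, where 0.0793% of all genes were lower in Gem than in HU and 0.0216% higher (0.108% and 0.0216% after scaling). Smc4 was the 1 subunit under an unadjusted p of 0.05 after scaling, a share not counted over all genes. Its FPKM was 64.0 ± 5.99 (n = 2) in Gem and 50.1 ± 0.438 (n = 2) in HU, a log2 difference of 0.34 with a limma adjusted p of 0.288, and of 0.29 after scaling with a limma adjusted p of 0.381. No difference between the drugs was thus detected for any of the 10.

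Regulators and further subunits of the complexes, a list of 35 genes, were examined by role. In Gem 7 of the 32 tested were lower as deposited, in HU 12 and in both drugs 10, and none was higher. These are 21.9%, 37.5% and 31.2% of the list, beside 23.2%, 35.5% and 38% of all tested genes. The count in Gem was 2 without DMSO 1 and 0 without Gem 2, and that in HU 6 without HU 1 or HU 2. As given above, counts of all genes called also fell in part of the comparisons without these libraries. The median log2 change of the 32 was -0.22 in Gem and -0.34 in HU, and after scaling 0.042 and -0.0076. After scaling 0 were lower in Gem by limma's adjusted p, and 2 in HU, Wapl and Nsmce2, beside 0.469% and 5.42% of all genes. In Gem 5 had an unadjusted p below 0.05 in either direction, and the share of all genes at that p was not counted. In both drugs together 3 of the 32 were lower after scaling (Wapl, Nsmce2 and Pttg1), where 5.11% of all genes were lower. Another 2 were higher (Nipbl at 0.33, limma adjusted p = 0.0454, and Pds5a at 0.44, limma adjusted p = 0.0416), where 3.91% of all genes were higher. Each of these 5 calls was lost when 1 or another library was left out. Those of Nipbl and Pds5a were lost without any 1 library but DMSO 3, with limma adjusted p of 0.0734 to 0.155 and 0.0651 to 0.141, and under the length and level correction (0.105 and 0.117). That of Pttg1 was lost without any 1 library but HU 1 and that of Nsmce2 without any but HU 2. The calls of Pttg1 and Nsmce2 were also lost under the length and level correction, with limma adjusted p of 0.316 and 0.1199. That of Wapl was lost without DMSO 1, DMSO 2, Gem 1, Gem 2 or HU 1, but was kept under that correction (limma adjusted p = 0.037). The 3 genes not tested, the meiotic subunits Rec8, Smc1b and Rad21l, reached at most 0.42, 0.08 and 0.07 FPKM.

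Among the genes that load and release cohesin, Wapl, which opens the ring, passed the test in HU on both scales. Wapl stood at 15.99, 16.11 and 15.07 FPKM in DMSO, 10.6 and 8.89 in Gem, and 7.59 and 8.86 in HU. No drug library came near the DMSO range. Its log2 change was -0.64 ± 0.12 in Gem (limma adjusted p = 0.0113) and -0.86 ± 0.12 in HU (limma adjusted p = 0.00207). After scaling it was -0.36 in Gem (limma adjusted p = 0.149) and -0.53 ± 0.10 in HU (limma adjusted p = 0.0238). The scaled call in HU was lost without DMSO 1 (0.0832), DMSO 2 (0.0716), HU 1 (0.12) or HU 2 (0.0659), given as adjusted p by limma. The loader Nipbl, by contrast, stood at 14.28, 13.63 and 15.03 FPKM in DMSO, 15.64 and 14.46 in Gem, and 13.33 and 14.8 in HU. These groups overlapped. Its partner Mau2 did not pass in either drug, at log2 changes of -0.13 and -0.31 (limma adjusted p = 0.405 and 0.0622), and 0.16 and 0.040 after scaling. Cdca5 (sororin), which protects cohesin from Wapl, fell by 0.50 in Gem and 0.49 in HU on the log2 scale as deposited, with limma adjusted p of 0.0183 and 0.0120. Both calls were lost after scaling, at -0.22 and -0.14 (limma adjusted p = 0.344 and 0.448). Pttg1 (securin), the inhibitor of separase, stood at 50.42, 54.82 and 52.21 FPKM in DMSO, 32.73 and 31.97 in Gem, and 36.59 and 33.8 in HU. Its log2 change was -0.68 in Gem (limma adjusted p = 0.00574) and -0.56 in HU (limma adjusted p = 0.00208), and the scaled values were -0.39 in Gem and -0.21 in HU (limma adjusted p = 0.0755 and 0.145). The alternative cohesin subunits Stag1 and Stag2 passed in HU as deposited, at -0.47 (limma adjusted p = 0.0141) and -0.35 (limma adjusted p = 0.0435). After scaling neither did, at -0.15 and -0.0038 (limma adjusted p = 0.438 and 0.989). The difference between the drugs did not pass for either, with limma adjusted p of 0.433 and 0.632.

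Of the condensin II subunits, Ncaph2 fell in both drugs and Ncapd3 in HU as deposited. Ncaph2 stood at 57.27, 58.77 and 58.08 FPKM in DMSO, 46.28 and 46.85 in Gem, and 47.86 and 41.91 in HU, all lower than DMSO. Its scaled log2 changes were -0.015 and -0.011. Ncapd3 was at -0.38 in HU (limma adjusted p = 0.0238) and -0.049 after scaling, and Ncapg2 at -0.27 in Gem and -0.33 in HU did not pass, and stood at 0.018 and 0.013 after scaling. Among the partners of Smc5 and Smc6, Nsmce2, their SUMO ligase, stood at 47.41, 43.12 and 46.88 FPKM in DMSO, 32.03 and 29.91 in Gem, and 22.65 and 28.61 in HU. All drug libraries were below DMSO, and HU 1 was lowest. Nsmce2 was at -0.82 in HU (limma adjusted p = 0.00202) and at -0.47 after scaling (limma adjusted p = 0.0326), a scaled call lost whichever library was left out, with limma adjusted p of 0.0511 to 0.143. Nsmce1, a RING finger subunit, stood at 58.6 ± 3.67 FPKM with DMSO, 42.0 ± 3.28 with Gem and 39.8 ± 3.39 with HU, and fell by 0.47 and 0.55 on the log2 scale as deposited, with limma adjusted p of 0.0145 and 0.00462. Both Nsmce1 calls were lost after scaling, at -0.17 and -0.19 (limma adjusted p = 0.398 and 0.253).

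**Figure D4:**
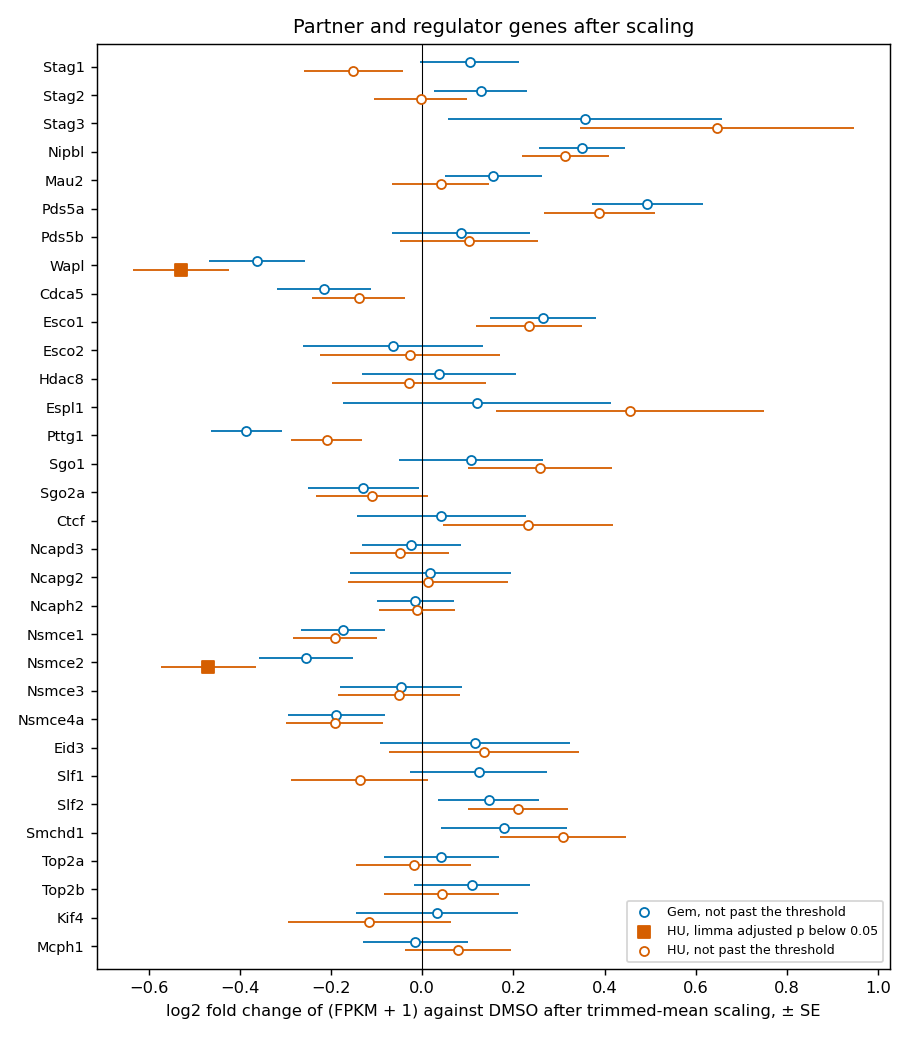
Log2 change of the tested regulators and further subunits against DMSO after trimmed-mean scaling, for Gem and HU, with bars for the SE and filled squares past the threshold. Wapl and Nsmce2 lie lowest in HU after scaling, at -0.53 and -0.47, while Nipbl and Pds5a lie above 0.

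Of 20 genes that mark dividing cells, 9 were lower in Gem and 13 in HU as deposited, beside 23.2% and 35.5% of all tested genes. After scaling 0 were lower in Gem and 1 in HU, beside 0.469% and 5.42%. The 1 was Birc5 (survivin), at -0.55 with a limma adjusted p of 0.0136. Cdk1, the mitotic kinase, was at -0.68 in HU (limma adjusted p = 0.00289) and at -0.32 after scaling (limma adjusted p = 0.0702). Aurkb, another mitotic kinase, was at -0.54 in Gem (limma adjusted p = 0.00996) and -0.46 in HU (limma adjusted p = 0.00855), and did not pass after scaling, at -0.25 and -0.10 (limma adjusted p = 0.195 and 0.494). The proliferation marker Mki67 did not pass in either drug, at -0.35 and -0.26, and stood at -0.080 and 0.073 after scaling. Summed FPKM of the list ran from 683 to 752 with DMSO, 491 to 580 with Gem and 491 to 531 with HU. The summed FPKM of the 10 subunits ran from 320 to 353, 259 to 281 and 241 to 244 in the same groups. Marker genes of other cells were summed in the same way. The 5 mast cell and basophil genes summed to 281 to 1356 FPKM with DMSO, 220 to 402 with Gem and 199 to 204 with HU. The 7 erythroid genes summed to 51.0 to 97.6, 22.0 to 30.6 and 30.4 to 32.5, and the 10 granulocyte and monocyte genes to 38998 to 43562, 47899 to 49655 and 44542 to 48027. The 5 megakaryocyte genes summed to 1714 to 2778, 1680 to 1784 and 1334 to 1528, the 6 lymphoid genes to 9.70 to 13.6, 9.57 to 9.82 and 8.02 to 12.9, and the 8 stem cell genes to 103 to 127, 72.5 to 83.8 and 72.8 to 77.0. The granulocyte and monocyte sum is mostly Lyz2, at 21718 to 30761 FPKM with DMSO and 32469 to 36422 with the drugs. The median log2 change of those 10 genes was -0.14 in Gem and -0.39 in HU as deposited, beside -0.25 and -0.30 for all tested genes. By limma 1 and 2 were lower, beside 23.2% and 35.5% of all genes, and 0 higher, beside 1.5% and 4.46%. After scaling the medians of the 10 were 0.16 in Gem and -0.028 in HU. After scaling 0 were lower in either drug, and 1 was higher in HU, beside 4.67% of all genes. The lymphoid sums overlapped between all groups, and the megakaryocyte and mast cell sums of Gem overlapped DMSO. No gene of these lists was at 0 in all libraries. The part of these genes and of the receptor genes in the changes of the subunits was not tested.

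Across the 7 libraries, scaled levels of some subunits ran together. Pearson's r was 0.86 for Smc3 with Smc4, 0.83 for Ncapd2 with Smc5, 0.78 for Smc1a with Smc2 and 0.74 for Ncaph with Smc6. Pairs within a complex varied, from -0.47 for Smc2 with Ncapd2 to 0.67 for Smc4 with Ncaph. Of the obligate ATPase partners, Smc2 and Smc4 had an r of 0.67, Smc1a and Smc3 of 0.50, and Smc5 and Smc6 of -0.42. Smc3 and Rad21 had an r of 0.13. These are descriptions over 7 points that share 3 treatment groups. Among 7888 genes with a mean of at least 5 FPKM, the scaled patterns nearest to Smc4 were those of Ik (r = 0.974), Mrps2 (0.967) and Btf3l4 (0.965). Nearest to Smc1a were Snx12 (0.979), Map4k1 (0.974) and Qdpr (0.960), and nearest to Smc6 were Fam50a (0.943), Gltp (0.941) and Swt1 (0.941).

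In GRCm38 by GENCODE M21, only Smc3 and Smc5 of the 10 lie on the same chromosome. Smc3 (chr19:53600398-53645833, +) and Smc5 (chr19:23206451-23273897, -) are both on chromosome 19. Smc1a lies at chrX:152016428-152062694 (+), Rad21 at chr15:51962240-51991747 (-), Smc2 at chr4:52439243-52488260 (+) and Smc4 at chr3:69004738-69034623 (+). Ncapd2 lies at chr6:125168007-125191701 (-), Ncapg at chr5:45669919-45700546 (+), Ncaph at chr2:127103809-127133954 (-) and Smc6 at chr12:11265886-11319785 (+). The exons of Smc1a span 5769 bases and those of Smc6 12502 in this annotation. The gene models used for the deposited values are not stated in the labels.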

How the data were processed

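RNA was amplified by Geo-seq and made into libraries with a transposase kit, per the labels' protocols. The authors deposited FPKM values per gene. The build mm10 and the tools HTSeq, Cufflinks 2.1.1, DESeq2 and Bowtie 0.12.9 are listed, without roles, per the submitters' processing notes; which tool made the FPKM is not stated. Reads could not be recovered: 28.4% to 35.2% of low values per library were whole read multiples within 0.1, where chance gives 20%.

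FPKM were put on the log2(FPKM + 1) scale and fitted with limma 3.58.1 (R 4.3.3), with 1 model of 3 groups, a trended prior and 4 residual degrees of freedom. The 13865 genes with at least 1 FPKM in at least 2 libraries were tested. Adjusted p-values are Benjamini-Hochberg over all tested genes, called below 0.05, and two-sided. A change understates the fold of low genes on this scale. Scaling used trimmed-mean factors (30% of ratios and 5% of levels trimmed). The script was tested on simulated data. Promoters are from RefSeq (GRCm38.p6), gene models from GENCODE M21. The members and lists were chosen with earlier results of these data known. Besides all 10 members, the text names genes of the wider list called on both scales, those with the 3 smallest p per drug, and those of condensin II, the loader, Stag1 and Stag2; Mki67, Cdk1, Birc5 and the 2 dividing-cell genes with the smallest p per drug; and the 3 genes most like the most abundant member of each complex. Cdca5 and Pds5a, and Lcorl and other overlapping genes, were chosen after their values were seen.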

Additional observations from a re-analysis of the deposited data

How the results depend on the processing

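The cause of the differences between alternatives was not tested, beyond what each alternative does. Of 5, 8 and 8 members lower in Gem, HU and both drugs as deposited, trimmed-mean scaling, quantile normalization and the length and level correction left 0, 0 and 0, and equal sums 0, 1 and 0. In Gem the count was also 0 with no filter, 1 with no mean-variance trend and 2 with the replicate block. The 7, 12 and 10 of the wider list became 0, 2 and 3 under trimmed-mean scaling, 0, 1 and 1 under quantile normalization, 1, 2 and 3 under equal sums, and 0, 1 and 1 under the length and level correction, and 2 in Gem with no filter. Counts of all genes called fell in 3 comparisons and stayed similar in 1 under trimmed-mean scaling, quantile normalization and equal sums alike. They fell in 4 under the length and level correction, and with no filter in 2, with 2 similar. Leaving out each library in turn gave 0 to 4 members in Gem, 4 to 7 in HU and 7 to 8 in both, and 0 lower after scaling in each, where Ncapd2 passed as higher without DMSO 3 in HU and in both drugs. The wider list gave 0 to 7, 6 to 11 and 7 to 11, and after scaling 0, 0 to 1 and 0 to 2. Same-numbered deviations had r between -0.0736 and 0.0549. With 2 libraries in Gem and in HU, the r with the other library of the group is the same value with its sign turned. These values therefore cannot decide whether the replicate numbers pair the libraries. The replicate block left 7 members in HU and 8 in both drugs, and 6, 9 and 8 of the wider list, and after scaling 0 in HU and 0 in both drugs. Replicate 3 exists only in DMSO, so the block gives the same log2 changes as leaving out DMSO 3 and is no separate check of them. The block and the left-out libraries on scaled values were added after seeing the data. Depth is unknown, so what it limits cannot be stated.

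Under quantile normalization, the log2 changes that turned sign in HU against DMSO were Smc1a 0.034, Ncapd2 0.31, Ncapg 0.048, Smc5 0.26, Mau2 0.087, Ncapg2 0.048, Ncaph2 0.10, Nipbl 0.34, Stag2 0.028, Aurkb 0.016, Mki67 0.076. In Gem against HU they were Smc1a -0.081, Smc2 -0.025, Smc5 -0.044. In Gem against DMSO they were Smc3 0.078, Smc4 0.080, Ncapd2 0.32, Ncaph 0.042, Smc5 0.21, Mau2 0.20, Ncapg2 0.039, Ncaph2 0.049, Stag1 0.083, Stag2 0.17, Cdk1 0.039. In both drugs against DMSO they were Smc3 0.0044, Ncapd2 0.32, Smc5 0.23. Under trimmed-mean scaling, the log2 changes that turned sign in Gem against HU were Smc1a -0.030, Smc5 -0.038. In Gem against DMSO they were Smc3 0.042, Ncapd2 0.27, Ncaph 0.012, Smc5 0.23, Mau2 0.16, Ncapg2 0.018, Stag1 0.10, Stag2 0.13. In HU against DMSO they were Ncapd2 0.22, Ncapg 0.022, Smc5 0.26, Mau2 0.040, Ncapg2 0.013, Nipbl 0.31, Mki67 0.073. In both drugs against DMSO they were Ncapd2 0.25, Smc5 0.25. Under equal sums (TPM scale), the log2 changes that turned sign in Gem against HU were Smc1a -0.11, Smc2 -0.059, Ncapd2 -0.031, Smc5 -0.11, Smc6 -0.019. In Gem against DMSO they were Ncapd2 0.17, Smc5 0.14, Mau2 0.060, Stag1 0.015, Stag2 0.033. In HU against DMSO they were Ncapd2 0.20, Ncapg 0.0036, Smc5 0.25, Mau2 0.022, Nipbl 0.30, Mki67 0.056. In both drugs against DMSO they were Ncapd2 0.19, Smc5 0.19. Under the length and level correction, the log2 changes that turned sign in Gem against HU were Smc1a -0.063, Smc2 -0.017, Smc5 -0.021. In Gem against DMSO they were Smc3 0.032, Smc4 0.010, Ncapd2 0.26, Ncaph 0.030, Smc5 0.18, Mau2 0.11, Ncaph2 0.032, Stag2 0.083. In HU against DMSO they were Ncapd2 0.24, Smc5 0.20, Mau2 0.0061, Ncaph2 0.071, Nipbl 0.25, Nsmce1 0.041, Aurkb 0.022. In both drugs against DMSO they were Ncapd2 0.25, Smc5 0.19. Under the replicate block, the log2 changes that turned sign in Gem against DMSO were Ncapd2 0.069, Smc5 0.025. In both drugs against DMSO they were Ncapd2 0.016, Smc5 0.017. In HU against DMSO they were Smc5 0.0090, Nipbl 0.0092. Leaving out each library in turn turned the sign for some results as deposited, with ranges of -0.072 to 0.13 for Smc1a Gem against HU, -0.12 to 0.28 for Smc2 Gem against HU, -0.089 to 0.069 for Ncapd2 Gem against DMSO, -0.14 to 0.016 for Ncapd2 both drugs against DMSO, -0.18 to 0.087 for Smc5 Gem against DMSO, -0.15 to 0.028 for Smc5 HU against DMSO, -0.13 to 0.017 for Smc5 both drugs against DMSO, -0.12 to 0.15 for Smc5 Gem against HU, -0.027 to 0.26 for Smc6 Gem against HU, -0.29 to 0.022 for Mau2 Gem against DMSO, -0.095 to 0.046 for Nipbl HU against DMSO.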

Other observations

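The introns of Smc4 hold Mir15b and Mir16-2, and Ncapd2 shares 237 exonic bases with the small RNA gene Scarna10. All 3 were listed at 0 in all 7 libraries. Ncapd2 also shares 235 exonic bases with Gm28967, which stood at 0 to 0.98 FPKM.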
